A study of Mus musculus with 8 samples.

Results

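The AMPA receptor genes examined here were 4 pore-forming subunits (Gria1, Gria2, Gria3, Gria4) and 6 auxiliary proteins, namely the transmembrane AMPA receptor regulatory proteins Cacng2, Cacng3, Cacng4 and Cacng8 and the cornichons Cnih2 and Cnih3. Their rows were taken by gene symbol, from a list made with earlier results of these data known, and all 10 were found among the 31053 genes of the count tables. Nuclei were taken from snap-frozen cortex of naive 6-week-old C57BL6J mice, 4 Wt and 4 Ifnar1-/-, with 2 females and 2 males of each genotype. Single-nuclei (sn)RNA-seq with 3' chemistry was used, in which molecules are tallied by their unique molecular identifiers (UMIs), and unspliced RNA was counted too. Ifnar1 encodes a chain of the type I interferon receptor, and the knockout is constitutive, so that every cell type carried it from the start. Each library was 1 mouse, named by genotype, sex and number (Wt F1, Ifnar1-/- M2), and the mouse was the replicate.

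AMPA receptors are glutamate-gated channels that carry most fast excitatory transmission in the brain, and each is a tetramer of Gria subunits. GRIA2 is the subunit whose RNA is edited at the pore so that a glutamine codon is read as arginine, and receptors that hold the edited subunit pass little calcium. The Cacng proteins listed here and the cornichons bind the tetramer, slow its closing and help to bring it to the synapse, and Cacng2 is known as stargazin. In cortex, parvalbumin interneurons are known for fast, calcium-permeable AMPA receptors, and oligodendrocyte precursors also receive glutamatergic synapses.

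The pore loop is shown for the 4 subunit genes because it carries the codon that separates edited Gria2 from the others. The 45 coding bases are given 5' to 3' on the gene's strand from the GRCm38 annotation, with the codon of the editing site in capitals.
Gria1: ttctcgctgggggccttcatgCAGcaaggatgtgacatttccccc
Gria2: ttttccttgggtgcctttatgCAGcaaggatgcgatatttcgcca
Gria3: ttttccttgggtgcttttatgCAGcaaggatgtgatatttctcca
Gria4: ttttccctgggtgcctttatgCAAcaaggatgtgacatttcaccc
The codon lies within coding exon 11 of each gene, at chr11:57243094-57243096 (plus strand) in Gria1, chr3:80706911-80706913 (minus strand) in Gria2, chrX:41610265-41610267 (plus strand) in Gria3 and chr9:4464137-4464139 (minus strand) in Gria4. The genome codes for glutamine in all 4, with CAG in Gria1, Gria2 and Gria3 and CAA in Gria4. Of the 45 bases, 42 are shared between Gria2 and Gria3, 39 between Gria2 and Gria4 and 36 between Gria2 and Gria1. The count tables give UMIs per gene and hold no bases, so editing was not measured.

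The libraries held 44063346 to 58423423 UMIs. After filters on nuclei and removal of 2331 doublets, 52010 of 56780 barcodes remained, 4309 to 8900 per library, and any pair of libraries shared 3 to 30 barcodes. Nuclei were clustered without the 10 genes and without 24 genes of AMPA receptor partners, so that neither set defined a class. Classes were named from marker genes and are written Glut (26518 nuclei), GABA (6985), Oligo (5842), Micro (4388), Striatal (2180), OPC (444), newly formed oligodendrocytes (226) and Astro (125), each meaning nuclei that resemble that cell type. In CPM, the UMIs of a gene scaled to the same total, Slc17a7, the vesicular glutamate transporter, stood at 289 CPM in Glut and 24.0 in GABA, Pdgfra at 1301 CPM in OPC and 1.32 in Oligo, and Mog at 2118 CPM in Oligo and 23.6 in OPC. The tissue labelled cortex also held the Striatal nuclei, with Rgs9 at 443 CPM, and 8 clusters with 5302 nuclei stayed unnamed. Astro rested on the 5 libraries with at least 10 such nuclei (109 nuclei in all). Ifnar1 itself was counted at 16.2 to 19.9 CPM in Wt and 13.9 to 16.9 CPM in Ifnar1-/-, and, as a count per gene does not show which part of the transcript it comes from, it is no test of the labels. The sex labels matched the sex-linked genes in 8 of 8 libraries.

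Each level is the CPM of 1 library in 1 class, taken from the sum of its nuclei. Levels are means ± SD over 8 libraries unless stated. In such sums, fewer nuclei that express a gene and less RNA per nucleus cannot be told apart. UMIs of nuclear RNA are not adjusted for gene length (5.654 kb for Cnih2 to 378.3 kb for Gria4), so levels are compared between classes for 1 gene and not between genes.

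The subunit genes were spread differently over the neuron classes, which were split by layer and projection into L2/3 IT, L4 IT, L5 IT, L5/6 NP, L6 CT, L6b and Car3 (IT, intratelencephalic; NP, near-projecting; CT, corticothalamic) and, among interneurons, into PValb, Sst, Vip and Lamp5. In Glut, 10682 nuclei of 14 clusters fitted none of these classes, nor did 316 GABA nuclei of 2 clusters. They are left out of the class orders below, so highest and lowest refer to the named classes. Gene positions are on GRCm38. Gria1 (ENSMUSG00000020524, chr11:57011387-57330244, plus strand) was highest in the Sst class of interneurons, with 2256 CPM in the lowest library, a median of 2670 and 3512 in the highest. Sst was above the next class, PValb, in 8 of 8 libraries (2732 ± 394 against 1849 ± 207 CPM). Striatal nuclei followed at 1702 ± 160 CPM, and the named glutamatergic classes were lower, from 842 ± 138 CPM in Car3 to 394 ± 48.5 in L4 IT. L4 IT lay under L5/6 NP, L2/3 IT and every other neuron class, and its 8 libraries ranged from 312 to 465 CPM. Classes in the middle of the Gria1 order (Vip, Car3, Lamp5, L6 CT, L6b, L5 IT) exchanged places between libraries.

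Gria2 (ENSMUSG00000033981, chr3:80681450-80802835, minus strand) was the most even of the subunits over neurons. Its class means ran from 2313 ± 379 CPM in L6 CT, the corticothalamic neurons, to 1333 ± 281 CPM in Lamp5 interneurons, and only 3 of 16 neighbouring pairs in the order kept the same order in all libraries. Newly formed oligodendrocytes (2007 ± 562 CPM) and Astro (1780 ± 526 CPM, n = 5) stood within the range of the neuron classes, whereas Oligo (250 ± 77.9 CPM) and Micro (233 ± 91.6 CPM) stood below all of them.

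Gria3 (ENSMUSG00000001986, chrX:41400854-41678601, plus strand) was highest in L6 CT (1436 ± 144 CPM) and L2/3 IT (1395 ± 114 CPM), which were not in the same order in every library (7 of 8). It was low in L4 IT (385 ± 50.3 CPM), Car3 (395 ± 66.4 CPM) and Vip (207 ± 24.7 CPM), the interneurons that mostly contact other interneurons. In Vip the lowest, median and highest libraries were at 160, 212 and 229 CPM, all below the 1232 CPM of the lowest L2/3 IT library. Gria4 (ENSMUSG00000025892, chr9:4417896-4796234, minus strand) ran the other way in several of these classes. It was highest in Car3, a deep-layer glutamatergic type, at 2251 to 2906 CPM with a median of 2544, followed by PValb (1695 to 2148, median 1917) and L4 IT (1706 ± 111 CPM). Car3, PValb and L4 IT kept this order in 8 of 8 libraries. Gria4 was lowest among neurons in L6b (369 ± 32.6 CPM) and L6 CT (526 ± 37.8 CPM), so that L6 CT was near the top for Gria3 and near the bottom for Gria4.

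**Figure D1:**
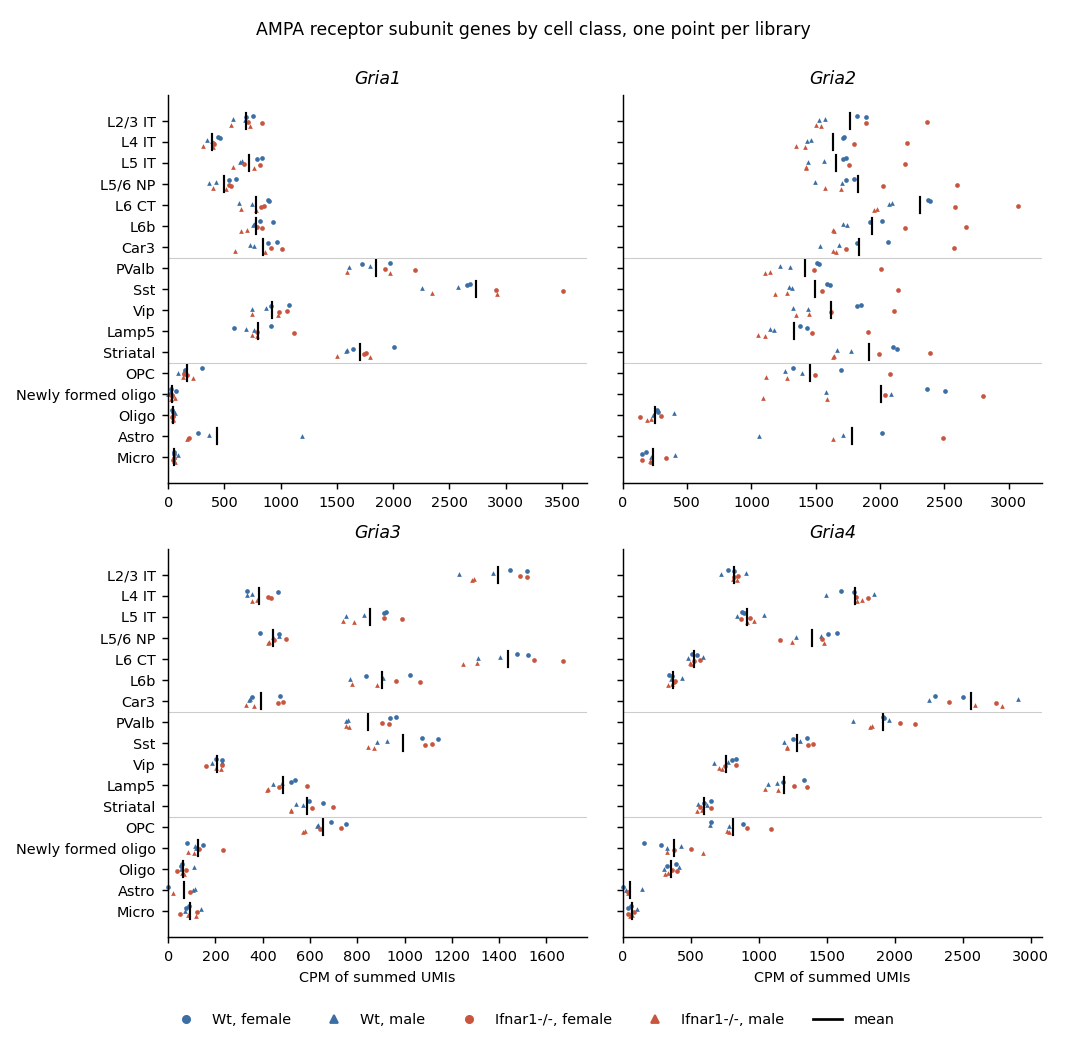
Levels of Gria1, Gria2, Gria3 and Gria4 (CPM of summed UMIs, linear axes from 0) in 17 cell classes. Each point is 1 library, circles are females and triangles males, blue is Wt and red Ifnar1-/-, and the black bar is the mean. Gria1 peaks in Sst (mean 2732 CPM), Gria4 in Car3 (2559 CPM), and Gria2 differs least between neuron classes (1333 to 2313 CPM).

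Within Glut, single clusters differed more than the named classes. Over the 22 Glut clusters with at least 100 nuclei, summed over libraries, Gria1 ran from 50.7 CPM in a cluster led by Cbln1 to 2484 CPM in a cluster led by Fn1, a 49.0-fold span, and Gria4 ran from 165 CPM in the Fn1 cluster to 2589 CPM in Car3. Gria2 spanned 2.30-fold over the same clusters. Some clusters outside the named classes lay beyond the extremes of those classes. Gria3 was at 1833 CPM in a cluster led by Ndst4 (1436 in L6 CT). Cnih3 was at 190 CPM in a cluster led by Scn7a (143 in L4 IT), and Cacng8 at 12.8 CPM in the Cbln1 cluster (34.7 in L4 IT). The Fn1 cluster had the highest Glut level also for Gria2 (2929 CPM), Cacng8 (223 CPM) and Cnih2 (60.3 CPM) and the lowest for Cacng2 (25.4 CPM) and Cacng4 (0.942 CPM). The Fn1 cluster held only 103 nuclei and the Cbln1 cluster 196, and the Cacng4 level of the Fn1 cluster rests on very few UMIs. The Glut clusters were not tested against each other.

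The auxiliary genes each had their own leading class. Cacng2 (stargazin, ENSMUSG00000019146, chr15:77991748-78120028, minus strand) was highest in PValb, at 183 to 272 CPM with a median of 233, and exceeded the next class, Lamp5 (146 ± 22.3 CPM), in 8 of 8 libraries. From Lamp5 down to L6b (100 ± 11.2 CPM) the neuron classes lay close together, and Striatal was lower (72.4 ± 15.8 CPM). Cacng3 (ENSMUSG00000066189, chr7:122670492-122769393, plus strand), its closest relative, was highest in L2/3 IT (347 to 403 CPM, median 390) and near the bottom of the neurons in PValb (30.1 to 40.3 CPM, median 37.2). PValb therefore held the highest Cacng2 level and the lowest Cacng3 level of all neuron classes, although Lamp5 (39.8 CPM) was above PValb for Cacng3 in only 5 of 8 libraries.

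Cacng4 (ENSMUSG00000020723, chr11:107732357-107794557, minus strand) was highest in OPC and lowest in Oligo (1.46 CPM). In OPC it measured 649, 798, 756 and 640 CPM in Wt (F1, F2, M1, M2) and 595, 878, 816 and 901 CPM in Ifnar1-/-. All 8 OPC values were above the highest value of any other class. Newly formed oligodendrocytes followed at 120 ± 76.0 CPM, and Striatal (83.5 ± 17.1 CPM) and Vip (64.9 ± 12.4 CPM) were the highest neurons, while Glut averaged 9.65 ± 1.74 CPM. Cacng8 (ENSMUSG00000053395, chr7:3390683-3415648, plus strand) was highest in Sst (133 to 220 CPM, median 168), above Striatal (106 ± 9.44 CPM) in 8 of 8 libraries, and L4 IT was the lowest neuron class (34.7 CPM).

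Of the cornichons, Cnih3 (ENSMUSG00000026514, chr1:181352628-181460641, plus strand) was high in particular glutamatergic layers. L4 IT held 125 to 167 CPM (median 145) and L5 IT 126 ± 8.77 CPM, followed by L6b (92.6 ± 11.4 CPM), whereas L2/3 IT and L6 CT averaged 24.6 and 21.5 CPM. Its order was the same in 8 of 8 libraries only for L4 IT over L5 IT and L5 IT over L6b. Cnih2 (ENSMUSG00000024873, chr19:5092868-5098521, minus strand) was low in every class, from 6.06 CPM in newly formed oligodendrocytes to 40.3 CPM in Astro, and none of its 16 neighbouring pairs kept their order in all libraries, so no class order can be read for it.

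**Figure D2:**
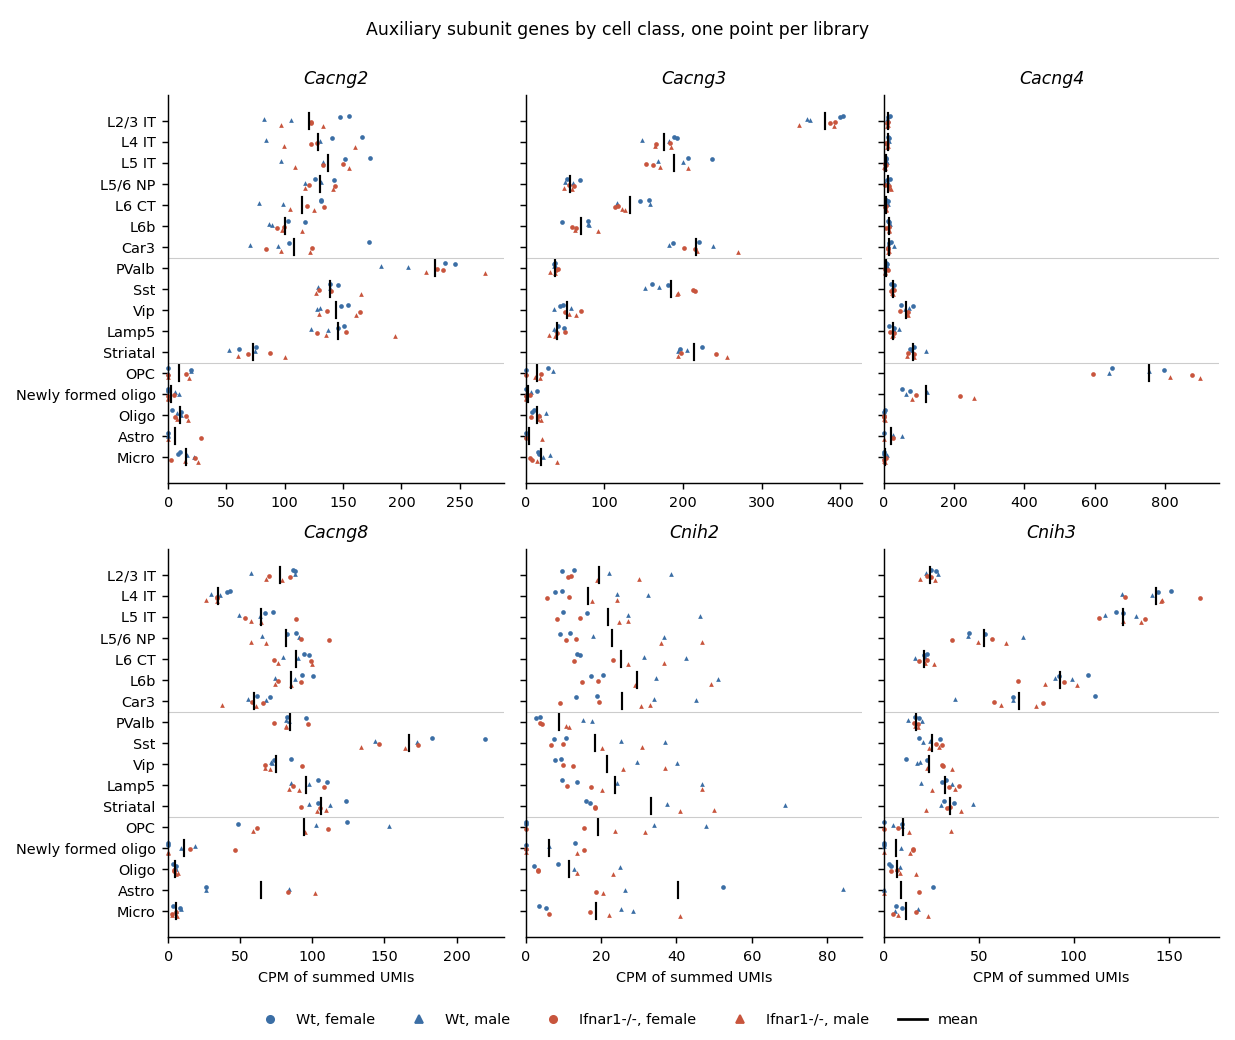
Levels of Cacng2, Cacng3, Cacng4, Cacng8, Cnih2 and Cnih3 (CPM of summed UMIs, linear axes from 0, a different scale for each gene) by cell class, with symbols as for the subunit genes. Cacng2 peaks in PValb (229 CPM), Cacng3 in L2/3 IT (380 CPM), Cacng4 in OPC (754 CPM) and Cnih3 in L4 IT (143 CPM), and the male libraries (triangles) lie to the right of the female ones for Cnih2 in most classes.

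The share of Gria2 among the UMIs of the 4 Gria genes describes the makeup of subunit RNA in a class. It is a share of UMIs without length adjustment, and is read between classes only. Gria2 made up 40.5 ± 2.84% in Glut and 26.5 ± 2.99% in GABA (n = 8). Glut was higher in 8 of 8 libraries, by 14.0 percentage points (SD 1.15, exact two-sided sign-flip permutation test over libraries, p = 0.0078125, the smallest p that 8 pairs allow, and the same value after Benjamini-Hochberg adjustment over 3 class contrasts). In PValb the share was 23.3 ± 2.96%, against 28.8 ± 3.1% in the other GABA nuclei, a difference of -5.45 points that was below 0 in 8 of 8 libraries (SD 0.763, the same exact test and p). The GABA classes were not alike, since Sst held 22.9 ± 2.76%, Lamp5 34.8 ± 3.54% and Vip 46.0 ± 3.13%. The mean share in Vip was above that in Glut.

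In the oligodendrocyte lineage the Gria2 share was 46.8 ± 3.55% in OPC, 78.1 ± 7.39% in newly formed oligodendrocytes and 34.6 ± 5.99% in Oligo. OPC exceeded Oligo in 8 of 8 libraries, by 12.2 points (SD 4.83, exact sign-flip permutation test, p = 0.0078125). In Oligo, Gria1, Gria2 and Gria3 were at 5.69%, 13.6% and 6.58% of their Glut level, within the range of 8 neuronal genes that gauge free RNA (given with the glia below). In Micro, where all 10 genes lay within that range (Cacng4 and Cnih2 only through its top gene, Nrgn), the Gria2 share was 51.6 ± 3.86%. The part of free RNA in the Oligo share was not tested. In newly formed oligodendrocytes Gria1 made up 1.46 ± 1.26% of the Gria UMIs, and the 8 libraries held 10 to 72 such nuclei. Astro also had a high Gria2 share (76.6 ± 19.1%, n = 5), but its libraries ran from 44.4% to 88.8%.

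**Figure D3:**
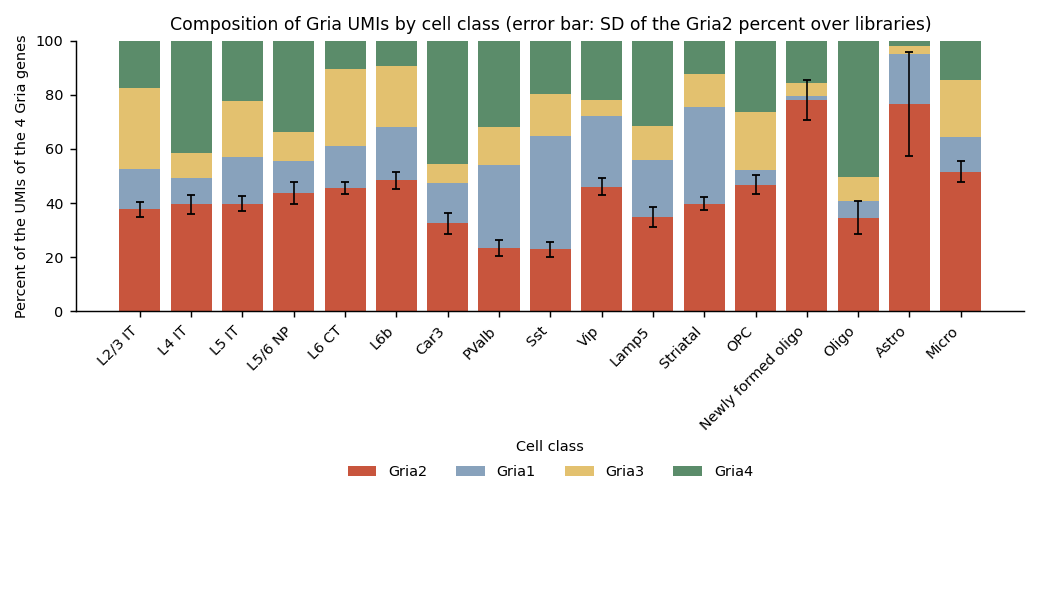
Mean percent of the UMIs of the 4 Gria genes that came from each gene, in 17 cell classes (stacked bars, y axis in percent from 0 to 100, 8 libraries per class and 5 for Astro). Error bars are the SD of the Gria2 percent over libraries. Gria2 is smallest in Sst and PValb (22.9% and 23.3%) and largest in newly formed oligodendrocytes (78.1%), and the Gria4 part is larger in Oligo (50.4%) and Car3 (45.6%) than in the other classes.

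The contrast of Glut with GABA used edgeR's quasi-likelihood test on summed UMIs, with the library as a block and Benjamini-Hochberg adjustment over all genes tested. With this block, the p-values rest on how much the difference between the classes varied from mouse to mouse. Of the 10 genes 10 passed an adjusted p of 0.05, 5 higher and 5 lower in Glut, beside 69.0% of all 17081 genes tested (32.8% higher and 36.2% lower), so that most genes differ between these classes. Higher in Glut were Cnih3 by 3.88-fold (86.8 ± 6.58 against 24.8 ± 4.39 CPM, log2 fold change 1.95 ± 0.07 SE), Cacng3 (205 ± 14.5 against 87.0 ± 8.40 CPM, 1.38 ± 0.05), Cnih2 (0.61 ± 0.07), Gria3 (0.55 ± 0.03) and Gria2 (0.49 ± 0.03). Lower in Glut were Cacng4 (log2 fold change -1.21 ± 0.10), Gria1 (769 ± 94.0 against 1843 ± 221 CPM, -1.12 ± 0.04), Cacng2 (-0.60 ± 0.04), Gria4 (-0.46 ± 0.04) and Cacng8 (-0.33 ± 0.03). The direction was the same in 8 of 8 libraries for each of the 10, and the ranges of the classes overlapped only for Gria2 and Cnih2. Of 24 partner genes, which include other auxiliary subunits, synaptic scaffolds and secreted pentraxins, 23 were tested, with 13 higher and 7 lower in Glut. The largest differences among them were Nptx1, a neuronal pentraxin (3.09 ± 0.09), and Dlg1, a scaffold (2.11 ± 0.06), higher in Glut, and Grip1 (-3.17 ± 0.04) and Grip2 (-2.05 ± 0.07), which bind the tails of AMPA receptor subunits, lower in Glut.

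PValb was then compared with all other GABA nuclei. Of the 10 genes 9 passed, 3 higher and 6 lower in PValb, beside 51.7% of 12822 genes tested (26.0% higher, 25.8% lower). The 3 higher genes were Gria4 (1915 ± 140 against 1158 ± 87.4 CPM, 1.66-fold), Cacng2 (229 ± 26.6 against 140 ± 14.7 CPM, 1.64-fold) and Gria3 (1.23-fold). Neither Gria4 nor Cacng2 overlapped between the classes in any library. The 6 lower genes were Cacng4 (log2 fold change -2.20 ± 0.13), Cacng3 (-1.68 ± 0.06), Cnih2 (-1.23 ± 0.12), Cnih3 (-0.76 ± 0.10), Cacng8 (-0.59 ± 0.05) and Gria2, the last by only -0.08 ± 0.03 (edgeR, Benjamini-Hochberg adjusted p = 0.027). The ranges of Gria2, Gria3 and Cnih2 overlapped, although each kept its direction in 8 of 8 libraries, and the log2 fold change of Gria2 PValb against other GABA did not pass within the 4 Wt or the 4 Ifnar1-/- libraries alone (adjusted p = 0.208 and 0.0704 in edgeR). Gria1 did not pass (0.01 ± 0.03, edgeR, Benjamini-Hochberg adjusted p = 0.736). Among the 10 genes, each auxiliary gene other than Cacng2 was thus lower in PValb. Of the 23 partner genes tested 7 were higher and 13 lower, with Adarb1, which encodes an enzyme that edits RNA, (0.62 ± 0.05) and Gsg1l (0.56 ± 0.11) highest and Cacng5 (-4.66 ± 0.21) and Shisa6 (-3.89 ± 0.09), both auxiliary subunits, lowest.

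OPC and Oligo were compared in the same way. Gria1, Gria2, Gria3 and Gria4, which were counted in every library of both classes, passed and were higher in OPC, beside 48.1% of 8489 genes tested (23.3% higher, 24.7% lower). Cacng2, Cnih2 and Cnih3 were too low to be tested. Cacng4 and Cacng8 entered the test only through their counts in OPC, so they had to differ and are given as values and not as calls. Cacng4 had 47 to 200 UMIs per library in OPC and 0 to 9 in Oligo, where the library CPM ran from 0 to 3.84, and its log2 fold change of 8.64 ± 0.18 depends on the prior count because 2 Oligo libraries held no UMI. Cacng8 was at 94.2 ± 36.0 CPM in OPC and 4.88 ± 1.09 CPM in Oligo, where it had 5 to 13 UMIs per library. Gria3 was higher in OPC by 9.26-fold (654 ± 65.1 against 64.5 ± 21.5 CPM), Gria2 by 5.46-fold, Gria1 by 3.53-fold and Gria4 by 2.11-fold (813 ± 148 against 353 ± 43.0 CPM). For each of the 4 Gria genes the ranges of OPC and Oligo did not overlap. Cacng3 did not pass (-0.14 ± 0.39, edgeR, Benjamini-Hochberg adjusted p = 0.801). Of 20 partner genes tested 14 were higher and 2 lower in OPC, with Shisa9 (4.22 ± 0.18) and Grip1 (3.86 ± 0.15) highest and Prrt1 (-1.75 ± 0.24) and Dlg1 (-1.74 ± 0.11) lowest.

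Free RNA from broken neurons gives UMIs in droplets of other cells, and it was gauged with 8 neuronal genes that mark no class (Snap25, Syt1, Camk2a, Nrgn, Kalrn, Arpp21, Rbfox1, Dlgap1). In Micro these stood at 5.50% to 111% of their Glut level (median 8.13%), and the 10 AMPA receptor genes at 6.75% to 82.4% (median 11.1%), within the same range. The top of that range was Nrgn alone. The next gene was Snap25 at 26.3%, and Cnih2 (82.4%) and Cacng4 (31.3%), both at low counts, lay between Snap25 and Nrgn. In Oligo the 8 genes stood at 2.78% to 66.4% (median 5.76%) and the 10 AMPA receptor genes at 5.69% to 51.1%, so none was above all 8. Here too Nrgn was the top, with Snap25 next at 16.9%, and Cnih2 (51.1%) and Gria4 (37.0%) lay between them. Gria4 was different between these glia. It stood at 37.0 ± 3.91% of its Glut level in Oligo and at 6.75 ± 2.18% in Micro, whereas each of the 8 neuronal genes was at a lower percent in Oligo than in Micro. In Oligo it measured 392, 322, 412 and 299 CPM in Wt and 364, 395, 334 and 310 CPM in Ifnar1-/-, and in Micro 36.9 to 107 CPM. After each nucleus was thinned to 1000 UMIs, 27.5% of Oligo nuclei and 5.93% of Micro nuclei had a Gria4 UMI (43.6% and 8.80% before thinning, at median depths of 1980 and 1472 UMIs). For Gria2 the thinned shares were 22.0% and 19.1%, and how much of either is free RNA was not tested.

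In OPC the 8 neuronal genes reached 96.2% of their Glut level (Dlgap1), and 2 AMPA receptor genes were above all of them, Cacng4 and Cacng8 (117 ± 40.2%). Dlgap1 was at 8.12% in Micro, and Rbfox1 at 43.4% in OPC and 6.41% in Micro, while Syt1, Camk2a and Nrgn were lower in OPC. Whether the 8 genes gauge free RNA in OPC was therefore not known and not tested. Gria2, Gria3 and Gria4 were at 77.5%, 65.8% and 85.5% in OPC and at 12.8%, 9.47% and 6.75% in Micro. Gria1 was lower in OPC, at 21.75%, below the median of the 8 neuronal genes there (27.84%), and at 7.42% in Micro. Thinned to 1000 UMIs, 51.4% of OPC nuclei had a Cacng4 UMI against 0.274% of Micro nuclei, and 75.5% had a Gria2 UMI. In newly formed oligodendrocytes and in Astro the mean percents of Gria2, Cacng4 and Cnih2 were above those of all 8 neuronal genes. Cnih2 rested on 0 to 15.6 CPM per library in the first class and on 1 to 3 UMIs per library in Astro. Cacng4 was at 0 CPM in at least 1 library of Astro. Gria2 in Astro (94.2 ± 17.3%) was close to Nrgn (87.8 ± 27.25%), and their libraries overlapped. Counting error alone gives 95% Wilson intervals of 46.7% to 56.0% and 0.157% to 0.477% for the Cacng4 shares.

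Between females and males, in Glut 4 of 10 passed in edgeR's test with genotype as a term (30.2% of 18535 genes tested passed, 13.6% higher and 16.6% lower in females). Sex differences were common among all genes, and the counts in Glut and in Oligo are near the shares of all genes there. Gria2 in Glut was at 1957, 1969, 2500 and 2038 CPM in the females (Wt F1, Wt F2, Ifnar1-/- F1, Ifnar1-/- F2) and at 1660, 1664, 1579 and 1596 CPM in the males (Wt M1, Wt M2, Ifnar1-/- M1, Ifnar1-/- M2). The sexes did not overlap, and the log2 fold change was 0.43 ± 0.08 (edgeR, Benjamini-Hochberg adjusted p = 0.00395). Gria1 (0.33 ± 0.07) and Gria3 (0.30 ± 0.06) were also higher in females, without overlap. Cnih2, by contrast, was at 12.5, 12.2, 14.9 and 11.3 CPM in the females and 25.6, 41.6, 32.3 and 22.5 CPM in the males, lower in every female library (-1.19 ± 0.18, edgeR, Benjamini-Hochberg adjusted p = 0.00144). Gria4 did not pass in Glut (0.04 ± 0.07).

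In GABA 5 of 10 passed (25.0% of 14753 genes tested passed, 10.8% higher and 14.2% lower in females). Gria2 (0.53 ± 0.10), Gria3 (0.39 ± 0.06), Gria1 (0.28 ± 0.08) and Gria4 (0.25 ± 0.06) were higher in females and Cnih2 was lower (-1.61 ± 0.19), at 6.47 to 8.34 CPM in females and 18.1 to 31.3 CPM in males. The ranges overlapped only for Gria1. Without Wt M2 the count in GABA was 3, since Gria1 and Gria4 did not pass, and without Ifnar1-/- M2 it was 6. In Oligo 2 of 8 passed, both lower in females (20.9% of 10436 genes tested passed, 8.59% higher and 12.3% lower): Cnih2 (-2.02 ± 0.38, 2.24 to 8.46 against 12.8 to 25.1 CPM) and Cnih3 (-1.15 ± 0.34, 2.82 to 6.82 against 6.94 to 17.1 CPM). These rest on few UMIs per library, for Cnih2 3 to 12 in females and 16 to 54 in males. For Cnih3 there were 4 to 11 in females and 10 to 40 in males. The count in Oligo was 1 without any 1 of Wt F1, Wt F2, Wt M1, Wt M2, Ifnar1-/- F2 and Ifnar1-/- M2, and 3 without Ifnar1-/- F1. Both levels, as percents of those in Glut, lie within the range of the 8 neuronal genes given above for Oligo, that of Cnih2 (51.1%) only below Nrgn (66.4%). The Oligo clusters differed in sex as well, since 1 held 25.4% and another 92.3% nuclei of females.

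Other measures of the libraries moved with sex. The median percent of mitochondrial UMIs in Glut was 0.105 to 0.283 in the females and 0.286 to 0.803 in the males, and Nrgn, a neuronal RNA, was at 33.6 to 160 CPM in Micro of females and 226 to 367 CPM in Micro of males. Nrgn in Glut itself was at 97.1 to 125 CPM in females and 175 to 229 CPM in males. Cnih2 in Micro was at 3.36 to 17.1 CPM in females and 22.2 to 40.9 CPM in males. The Micro nuclei lay in 2 clusters, of which 62.0% and 8.36% were of females. Whether these library differences have a part in the sex results was not tested. Of the partner genes 6 of 23 passed in Glut, 4 of 23 in GABA and 3 of 19 in Oligo. Gsg1l, Shisa6, Shisa9 and Grip1 were higher and Olfm1 and Nptx2 lower in females in Glut, Shisa6, Grip1 and Grip2 higher and Olfm1 lower in GABA, and Shisa6 and Dlg1 higher and Olfm1 lower in Oligo, with Olfm1 at log2 fold changes of -0.79 ± 0.09, -0.83 ± 0.13 and -0.97 ± 0.24. The Gria2 share of Gria UMIs in Glut was 42.3 ± 3.01% in females and 38.8 ± 1.19% in males (exact two-sided permutation test, p = 0.0286, the smallest possible with 4 against 4, and 0.0857 after Benjamini-Hochberg adjustment over 3 classes). The lowest female (40.6%) and the highest male (40.5%) lay next to each other, and the highest female, Ifnar1-/- F1 (46.8%), lay far above the other females. In GABA females exceeded males by 3.20 points on average, but the lowest female (24.9%) was below the highest male (26.8%, exact permutation p = 0.171, adjusted p = 0.257). In Oligo the difference was -1.64 points (exact permutation p = 0.771).

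**Figure D4:**
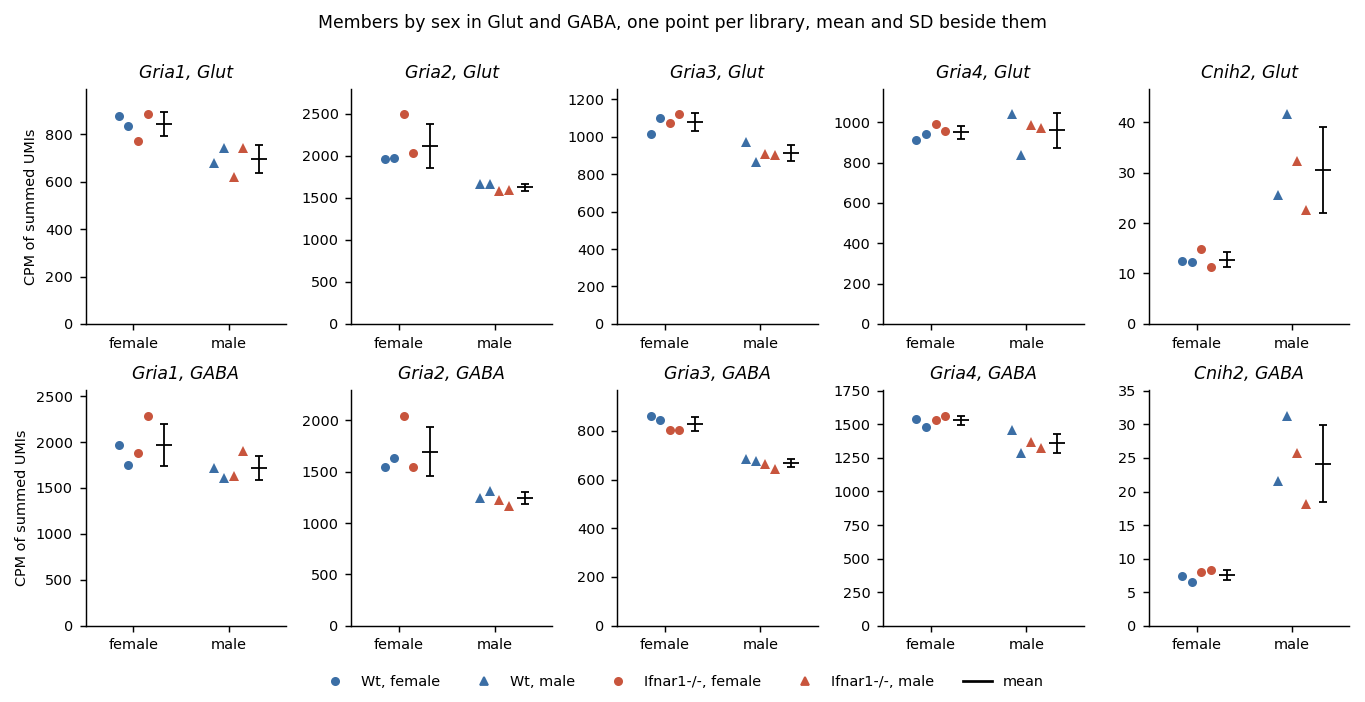
Levels of Gria1, Gria2, Gria3, Gria4 and Cnih2 (CPM of summed UMIs, linear axes from 0) in Glut (top) and GABA (bottom) by sex. Each point is 1 library (blue Wt, red Ifnar1-/-), with the mean and SD of 4 libraries beside them. Gria2 in Glut lies between 1957 and 2500 CPM in females and between 1579 and 1664 CPM in males, and Cnih2 is lower in every female library than in every male one.

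The study's main comparison is Ifnar1-/- against Wt. None of the AMPA receptor genes passed the adjusted threshold in any of 7 classes in edgeR's test, nor in DESeq2, and 3 of the 53 values tested had an unadjusted p under 0.05. In Glut 0 of 10 passed (0.0647% of 18535 genes tested did), in GABA 0 of 10 (0.0271% of 14753), in PValb 0 of 10 (0.0331% of 12085), in OPC 0 of 6 (0% of 2342), in Oligo 0 of 8 (0.0575% of 10436), in Micro 0 of 7 (0.105% of 9563) and in Astro 0 of 2 (0% of 655). At an unadjusted p under 0.05 there was 1 gene each in Glut, GABA and Astro, beside 1.78%, 1.74% and 5.34% of all genes tested there. None of the partner genes passed in any class. Few genes of any kind passed, so a share of 0 is near that of all genes.

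The 3 values at the unadjusted threshold were as follows. Cacng4 in Glut was at 10.1 to 12.3 CPM in Wt and 8.82, 7.80, 7.84 and 8.12 CPM in Ifnar1-/-. The genotypes did not overlap, at a low level (log2 fold change -0.44 ± 0.12, unadjusted p = 0.00447 and Benjamini-Hochberg adjusted p = 0.9999 in edgeR). Cacng3 in GABA was at 79.5, 83.7, 78.1 and 78.3 CPM in Wt and 94.8, 100.5, 91.3 and 90.2 CPM in Ifnar1-/-, again without overlap (0.25 ± 0.09, edgeR, Benjamini-Hochberg adjusted p = 1). Gria1 in Astro was at 261, 365 and 1188 CPM in 3 Wt libraries and 185 and 163 CPM in 2 Ifnar1-/- libraries, counted from 10, 13, 45, 20 and 8 UMIs (-1.79 ± 0.61, edgeR, Benjamini-Hochberg adjusted p = 0.893). Wt M2, with the highest of these values, held 12 Astro nuclei, and without it the log2 fold change of Gria1 by genotype in Astro was -0.79 ± 0.49 (adjusted p = 0.999 in edgeR). With the replicate label as a block Gria1 in Astro did pass (-1.69 ± 0.43, edgeR, Benjamini-Hochberg adjusted p = 0.028), but the block left 2 complete pairs (F1 and M2) and 1 residual degree of freedom.

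In Glut the log2 fold changes were 0.10 ± 0.17 for Gria2, -0.04 ± 0.13 for Gria1, 0.03 ± 0.12 for Gria3 and 0.08 ± 0.07 for Gria4, and the median size over the 10 genes was 0.06, beside 0.10 over all genes tested. In PValb Gria4 and Cacng2, the genes most raised there against other interneurons, differed between genotypes by 0.08 ± 0.11 and 0.14 ± 0.13, and in OPC Cacng4 differed by 0.15 ± 0.17. Gria2 in Oligo gave -0.47 ± 0.22 with overlapping genotypes (292 ± 69.8 CPM in Wt and 208 ± 67.5 CPM in Ifnar1-/-, n = 4). The Oligo clusters were not evenly made up of the genotypes, with 23.5% Wt nuclei in 1 and 56.2% and 54.1% in the others, and the part of this in the Gria2 value was not tested. In finer classes 0 of 10 genes passed in L2/3 IT, L4 IT, L5 IT, L6 CT, Sst and Vip, beside 0.0292%, 0.0385%, 0.0416%, 0.0663%, 0.0173% and 0.0435% of all genes, with 1 gene at an unadjusted p under 0.05 in L4 IT (Cacng4, -0.55 ± 0.19), in Sst (Cacng3, 0.32 ± 0.11) and in Vip (Cnih3, 0.76 ± 0.26) and 0 in the others, beside 2.10%, 1.91% and 1.88% of all genes in those 3 classes. A test of whether the effect of genotype differed between females and males gave 0 calls in Glut, GABA and Oligo in edgeR (0% of genes passed, and 1 of the 10 genes in Glut, Cacng2, and 0 in GABA and Oligo had an unadjusted p under 0.05).

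The Gria2 share of Gria UMIs was 41.0 ± 4.06% in Ifnar1-/- and 40.1 ± 1.33% in Wt in Glut (n = 4 each, exact two-sided permutation test, p = 0.8), with differences of -0.0489 points in GABA, -0.512 in PValb and -0.797 in OPC (exact permutation p = 1, 0.914 and 0.914, and 1 for each of the 4 after Benjamini-Hochberg adjustment). The share by which OPC exceeded Oligo was 15.3 ± 4.97 points in Ifnar1-/- and 9.01 ± 1.74 points in Wt (exact permutation test, p = 0.0571, adjusted p = 0.171 over 3 contrasts). Ifnar1-/- F1 had the highest Gria2 share of all libraries in Glut, GABA, PValb and OPC. Without it the genotype differences were -1.04, -2.12, -2.56 and -3.31 points (exact permutation p = 0.457, 0.171, 0.171 and 0.114). A p that misses the threshold does not show that the genotypes are alike.

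**Figure D5:**
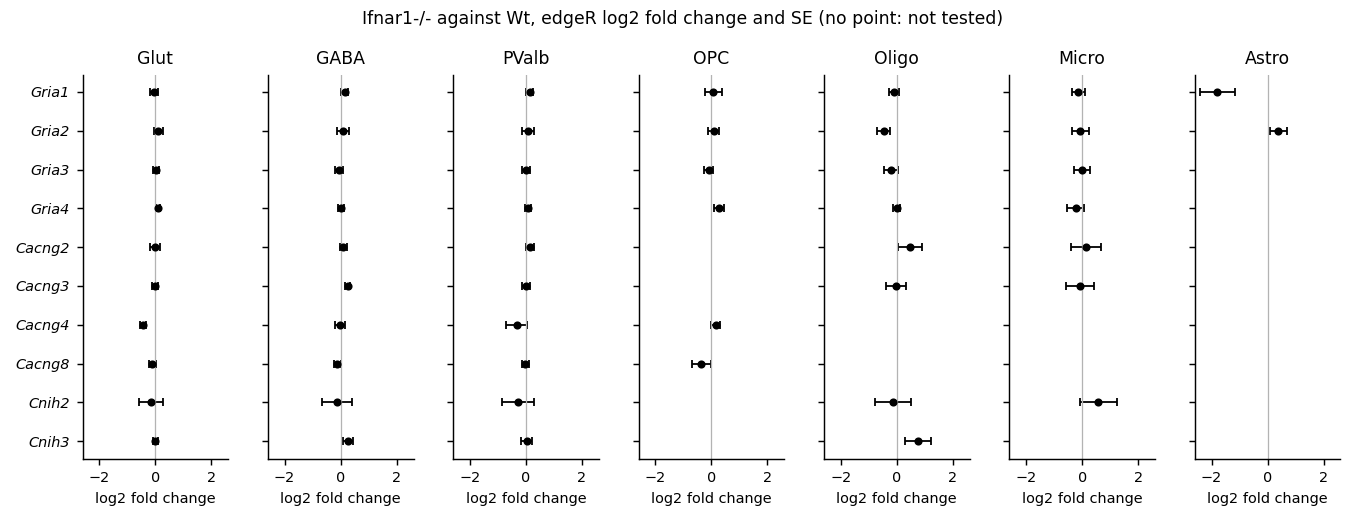
Log2 fold change of Ifnar1-/- against Wt (x axis, edgeR estimate with its SE as the bar) for the 10 genes in 7 classes. A missing point is a gene with too few counts to be tested. In Glut, GABA and PValb the estimates of the 4 Gria genes lie between -0.06 and 0.14, that of Cacng4 in Glut is -0.44, and the widest bars are those of Cnih2 and of Gria1 in Astro (-1.79 ± 0.61).

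Genes with the most similar pattern were named by Pearson's r of log2(CPM + 1) over the 17 class means, among 11666 genes with at least 20 CPM in a class. The 17 points come from the same 8 libraries and differ in depth and in free RNA, and r is a description. For Gria1 these were Snph (r = 0.944) and Gm10785 (0.940), for Gria2 4930545L23Rik (0.968) and Plcb1 (0.967), for Gria3 Ints10 (0.924) and Rbfox1 (0.919), and for Gria4 Armcx1 (0.903) and Gm15398 (0.895). Cacng2 was most like Snhg11 (0.987) and Mir124a-1hg (0.979), Cacng3 like AC061963.1 (0.945) and Dnah1 (0.938), Cacng4 like Nlgn3 (0.899) and Stk32a (0.897), and Cacng8 like Gm44151 (0.970) and Pbx4 (0.964). Cnih2 was most like Kcnn3 (0.872) and Ahdc1 (0.849), and among the genes named for Cnih3 was Pdlim7 (0.870). Among the AMPA receptor genes themselves the highest r was that of Gria1 with Cacng8 (0.888), the pair that was highest in Sst, followed by Cacng2 with Cacng3 (0.821).

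The 250 bases before the transcript start are shown for Gria2 and Cnih2, which moved in opposite directions between the sexes, from RefSeq (GRCm38.p6), 5' to 3' on the minus strand, with GC boxes in capitals (GGGCGG or its reverse complement). Gria2 is chr3:80802836-80803085 and Cnih2 chr19:5098522-5098771.
Gria2: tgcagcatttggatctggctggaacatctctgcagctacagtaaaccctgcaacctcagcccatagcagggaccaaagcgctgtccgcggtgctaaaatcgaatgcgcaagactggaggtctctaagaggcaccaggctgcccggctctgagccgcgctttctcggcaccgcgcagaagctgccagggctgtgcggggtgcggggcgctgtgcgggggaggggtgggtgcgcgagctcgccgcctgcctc
Cnih2: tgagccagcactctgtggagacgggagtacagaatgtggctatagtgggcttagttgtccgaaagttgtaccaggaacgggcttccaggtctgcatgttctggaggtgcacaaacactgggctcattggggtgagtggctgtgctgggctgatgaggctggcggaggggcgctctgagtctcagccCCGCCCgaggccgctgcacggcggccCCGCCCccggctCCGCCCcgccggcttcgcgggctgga
RefSeq sequences matched 7 of the 10 genes. In these 7 windows the letters GGGCGG were found 3 times in Cnih2 (64, 38 and 26 bases before the start) and 1 time in Cnih3 (69 bases before the start), and 32.7% of 32817 windows of this length hold at least 1. The cyclic AMP response element (TGACGTCA, in 1.55% of windows), the core of the interferon-stimulated response element (GAAA, any 2 bases and GAAA again, 2.97%), the gamma-activated sequence (TTCNNNGAA, 7.02%) and the TATA box (TATAAA, 12.4%) were searched on both strands and their letters were not in any of the 7. The windows of Cacng2, Cacng3 and Cacng8 lie inside the gene spans given above (chr7:3393792-3394041 for Cacng8). They precede a RefSeq start within the gene, and the bases before those spans were not searched. A match is a description of letters and not of binding.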

How the data were processed

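Nuclei of snap-frozen cortex from 8 mice were measured by snRNA-seq. The deposited matrices hold raw UMI counts per gene and barcode, made by the authors with Cell Ranger on mm10 with unspliced reads counted (Seurat 3.1.5 is also named in the submitters' processing notes). Barcodes with more than 200 and fewer than 6000 genes, more than 1000 UMIs and less than 10% mitochondrial UMIs were kept, and doublets (4.29%) were removed with Scrublet. Nuclei were clustered with scanpy 1.11.5 (3000 variable genes, 40 principal components, 20 neighbours, Leiden resolution 1.5 with leidenalg 0.10.2). The 10 AMPA receptor genes and 24 partners were kept out of the variable genes. Clusters were named from at least 3 markers each, and classes resemble the named types.

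UMI counts were summed per mouse and class with at least 10 nuclei and tested with edgeR 4.0.16 (R 4.3.3, quasi-likelihood, trimmed mean of M-values, filter on low counts, Benjamini-Hochberg threshold 0.05). Single values were tested with exact permutation tests in scipy 1.17.1. The edgeR and DESeq2 fits by genotype without a block were tested on counts simulated from Glut and OPC. The fits by class and by sex and the interaction were not tested in this way. Alternatives were DESeq2 1.42.0, its size factors, no filter, sex or replicate label as a term, 1 genotype only and each library left out. Finer classes, GABA without its unnamed clusters, Gria2 shares by sex, the contrasts of Gria2 shares by genotype and the interaction of genotype and sex were added after the data had been seen.

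Members and lists were chosen with earlier results of these data known. All 10 genes are named. Partner genes are named where they passed by genotype or sex, or were among the 2 largest rises or falls in a class contrast. Genes of similar pattern are the 2 with the highest Pearson's r per member. A gene of this kind is not reported here. The labels give each genotype the numbers F1, F2, M1 and M2, and same-numbered libraries deviated together (r = 0.523, 0.616, 0.641 and 0.436 in Glut, and over 0.1 in every pair in GABA and Oligo). Pairs of the same sex with other numbers were as alike (r = 0.535, 0.654, 0.404 and 0.749 in Glut). The values therefore do not set a pairing by number apart from likeness by sex. The tests by genotype were made without the replicate label as a block, and the fits with it are given as alternatives. RefSeq held no upstream window for Gria1, Gria3 and Cacng4.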

Additional observations from a re-analysis of the deposited data

Results flagged for a closer look

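In 6 of 128 groups of 4 libraries, 1 library lay far from the other 3, which is close to the 1 in 20 that chance gives. In PValb, Gria4 was at 1695 CPM in Wt M2, below the 1915 to 1956 CPM of the other Wt libraries, Cacng4 was at 13.1 CPM in Ifnar1-/- F2, above 4.34 to 4.97 CPM, and Cacng8 was at 95.8 CPM in Wt F2, above 81.5 to 83.7 CPM. In glia, Gria3 was at 110 CPM in Oligo of Wt M1, above 53.0 to 60.6 CPM, and Gria1 was at 83.3 CPM in Micro of the same library, above 48.7 to 54.5 CPM. The Gria2 share of Gria UMIs in OPC was 53.9% in Ifnar1-/- F1, above the 42.9% to 44.7% of the other Ifnar1-/- libraries. This library also had the highest Gria2 share of all libraries in Glut (46.8%), GABA (32.7%) and PValb (29.2%), so the shift was not particular to OPC. Of 28 tests of whether the genotype effect differed between the sexes, none passed in edgeR.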

How the results depend on the processing

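Class contrasts were the most stable. The 10 and 9 genes past the threshold for Glut and PValb, and Gria1, Gria2, Gria3 and Gria4 for OPC, passed also without any 1 library. Among the values of called genes under the alternatives 323 kept their call and direction and 2 lost the call (Gria2 in PValb within 1 genotype). The 323 include Cacng4 and Cacng8 in OPC, which had to differ and say nothing on stability. Within Wt or Ifnar1-/- libraries alone the differences of the Gria2 share were 13.6 and 14.5 points (Glut over GABA), -5.21 and -5.68 (PValb) and 9.01 and 15.3 (OPC over Oligo), each at an exact permutation p of 0.125, the smallest that 4 pairs allow. Leaving out 1 library gave 13.8 to 14.3, -5.60 to -5.33 and 10.8 to 12.9. By genotype, the count of calls in Astro was 1 (Gria1) with the replicate block, which changed no other call of the 10 genes, and 93 of the other 680 values under the alternatives, none of them called, had the other sign. Genotype differences of the Gria2 share ran without 1 library from -1.04 to 1.94 points in Glut, -2.12 to 1.03 in GABA, -2.56 to 0.648 in PValb and -3.31 to 0.349 in OPC, and had exact permutation p of 0.625 in Glut and 1 in the other 3 with the replicate block. By sex, the counts without 1 library were 4 to 6 in Glut, 3 to 6 in GABA and 1 to 3 in Oligo, and Oligo gave 1 with DESeq2 and 1 with no genotype term. Over all genes, calls by genotype rose from 12 to 42 (DESeq2) and 25 (sex term) in Glut, where size factors gave 8, from 4 to 18 and 10 in GABA, from 4 to 11 (DESeq2), 10 (no filter), 9 (sex term) and 7 (block) in PValb, from 0 to 7 (no filter) in OPC, from 6 to 13 (DESeq2, no filter) and 14 (sex term, block) in Oligo, from 10 to 22 (no filter) and 17 (block) in Micro, and from 0 to 2 (no filter), 3 (sex term) and 7 (block) in Astro. The cause was not tested. Of 210 levels 209 moved by less than 1 SD when nuclei were weighted equally. Depth limits Astro (8 to 45 Gria1 UMIs per library), Cacng4 in Oligo and Micro, Cnih3 in Oligo, and Cnih2 throughout.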

Other observations

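Clusters that stayed unnamed also held AMPA receptor RNA. A cluster of 3386 nuclei led by Avp, Nts and Oxt, which encode neuropeptides, had Gria1 at 1104 CPM, Gria2 at 1600 CPM, Gria3 at 604 CPM and Gria4 at 1067 CPM over all libraries, with Cacng4 at 53.3 CPM. A cluster of 83 nuclei led by Slc5a7 and Chat, genes of choline uptake and acetylcholine synthesis, was lower for Gria2 (714 CPM) and Gria1 (386 CPM), with Gria4 at 871 CPM. A cluster of 1230 nuclei whose leading genes include Apod and Hapln2, both known from oligodendrocytes, had Gria4 at 268 CPM and Gria2 at 165 CPM. These are sums over nuclei with no test.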
